A study of Mus musculus with 48 samples.

Results

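Gene expression was compared between the limb ectoderm of mouse embryos 12 h after the dam received acetazolamide and the limb ectoderm of embryos whose dam received the oil vehicle. The comparison used 6 of the series' 48 arrays, 3 for acetazolamide and 3 for oil, taken by their titles, and all 10855 probe sets that name 1 gene, which cover 8252 genes. Pregnant mice were injected intraperitoneally on gestation day 9.5 with 400 mg/kg acetazolamide in vegetable oil, or with the oil. The right forelimb buds were treated with 2% trypsin, ectoderm and mesoderm were parted, and the ectoderms of several litters were pooled for RNA. Groups set beside this one were acetazolamide and oil in ectoderm at 3 h, acetazolamide and oil in mesoderm at 12 h, and 4 mg/kg cadmium sulfate and its phosphate buffered saline vehicle in ectoderm at 12 h, each with 3 arrays. For a correlation over genes, acetazolamide and oil in mesoderm at 3 h were used too, also with 3 arrays each. Strain and genotype were not given in the labels. The labels also say that non-pooled extracts were hybridised, and how this relates to the pooling of litters is not clear from them. Nothing in the labels says that the 3 arrays of a group came from separate pools of litters. The p-values therefore measure a spread between arrays, which may be technical. That spread was pooled over all 48 arrays of the series, so it is not that of these 6 arrays alone.

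Acetazolamide inhibits carbonic anhydrases, the enzymes that interconvert carbon dioxide and bicarbonate and so govern pH in and around cells. It is a limb teratogen in rodents, and the title of the series names a phenotype that it shares with cadmium. The limb ectoderm is a thin epithelium whose rim thickens into the apical ectodermal ridge, and the FGF ligands of the ridge keep the mesoderm beneath it alive and growing.

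The deposited values are ratios to oil arrays, here taken to log2, so that 0 is the level of the oil arrays and no absolute level remains. In every probe set the ratios of oil arrays 1 and 2 sum to 2 and that of oil array 3 is 1. Oil array 3 therefore has a log2 ratio of 0 for every gene and carries no spread of its own. Whether a probe set was above background, and whether the epithelial markers were present in the preparation, cannot be read from such values. A difference below is the acetazolamide mean minus the oil mean on the log2 scale, ± its standard error in the limma fit, with n = 3 arrays in each group. Adjusted p-values are Benjamini-Hochberg values over all 8252 genes.

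No gene passed an adjusted p of 0.05 (0 of 8252 genes, 0%). The smallest adjusted p was 0.0733, for Jade1. At an unadjusted p under 0.05 there were 649 genes (7.86%). Of these, 468 had higher values after acetazolamide (5.67% of all genes) and 181 had lower values (2.19%). The 3 acetazolamide arrays lay above all 3 oil arrays for 700 genes (8.48%) and below all 3 for 686 genes (8.31%). In each probe set oil arrays 1 and 2 lie on opposite sides of oil array 3 by construction, so that array hardly adds to this separation. Acetazolamide array 3, taken as a ratio to oil array 3, is ranked here against ratios with another denominator. The median difference over all genes was -0.00, and single genes lay between -0.78 and 1.75. The 95% interval of a typical gene reached 0.36 to either side of its difference (median over genes). The counts turned on single arrays. Without oil array 2 the genes at an unadjusted p under 0.05 numbered 1159 above oil and 887 below it, and without acetazolamide array 1 they numbered 233 above and 23 below. Without oil array 1 there were 335 above oil (4.06%) and 329 below it (3.99%). With an array left out, the count of a list below is to be read beside the share of all genes without that array. The count past the adjusted threshold was 338 without oil array 2, when the weights were estimated anew, and 0 when the weights of all arrays were held. It was 1 without oil array 1, and 6 from arrays 1 and 2 of both groups alone.

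The gene with the smallest p was Jade1, which encodes a scaffold subunit of a histone acetyltransferase complex. Its log2 ratios were 1.07, 1.56 and 0.23 in the acetazolamide arrays, against -0.09, 0.08 and 0 in the oil arrays. The groups did not overlap, but acetazolamide array 3 lay much closer to oil than the other two did. The difference was 0.95 ± 0.18 (95% interval 0.59 to 1.31, 1.94-fold), with an adjusted p of 0.0733 in limma. Over 13 alternatives the difference lay between 0.71 and 1.32, but several of them could not move it. Changes of weights, blocks or variances, or fitting the 6 arrays on their own, leave it as it is by construction. Leaving out array 3 of either group repeats the fit of arrays 1 and 2 alone. The adjusted p of Jade1 in limma fell to 0.000549 with arrays 1 and 2 alone and to 0.0157 without weights. It reached 0.634 with the 6 arrays fitted on their own.

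Adssl1, an adenylosuccinate synthase isozyme of purine nucleotide synthesis, had ratios of 1.04, 1.42 and 0.26 after acetazolamide, against 0.12, -0.13 and 0 after oil. Htra1, a secreted serine protease that cleaves matrix proteins, had 0.83, 1.83 and 0.42 after acetazolamide, against -0.20, 0.17 and 0 after oil. Both repeated the shape seen for Jade1, with array 3 the lowest of the treated arrays. The differences were 0.91 ± 0.20 for Adssl1 and 1.03 ± 0.23 for Htra1, each with an adjusted p of 0.272 in limma. Ltbp1, which binds latent TGF-beta in the matrix, differed by 0.58 ± 0.14 and Cmtm8, a membrane protein of the MARVEL family, by 0.81 ± 0.19, both with an adjusted p of 0.323. Together with Jade1 and Iqgap1, a scaffold of the cell cortex named here after its values were seen, these were the 6 genes that passed in arrays 1 and 2 alone.

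Other genes near the top were even across the treated arrays. Uqcrc2, a core subunit of respiratory complex III, had 0.72, 0.91 and 1.06 after acetazolamide, against -0.06, 0.06 and 0 after oil, a difference of 0.90 ± 0.24. Scarb2, a lysosomal membrane protein, had 0.73, 0.80 and 0.94 after acetazolamide, against -0.28, 0.23 and 0 after oil (0.84 ± 0.22). In these genes all treated arrays stood clear of oil by a similar margin, yet neither passed the adjusted test (0.478 for both). The rest of the 14 genes above oil with the smallest p were Agtrap, which binds the angiotensin receptor, Esrp1, Lpin1, a phosphatidate phosphatase, Rttn, a centriole protein, 6430706D22Rik, Wwc1, a Hippo pathway scaffold, and Gpalpp1, with differences of 0.48 to 0.91.

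The 14 genes below oil with the smallest p had smaller differences, -0.68 to -0.30, and adjusted p-values of 0.478 to 0.559 in limma. Cldn5, a tight junction protein of endothelium, led them with -0.72, -0.46 and -0.62 after acetazolamide, against 0.02, -0.02 and 0 after oil, a difference of -0.60 ± 0.17. Cdh5, the cadherin of endothelial junctions, had -0.80, -0.80 and -0.55 after acetazolamide, against -0.46, 0.35 and 0 after oil (-0.68 ± 0.24). For Cldn5 the groups stood well apart, whereas for Cdh5 the lowest oil array came close to the nearest treated array. Casp4, an inflammatory caspase, differed by -0.46 ± 0.14, and Il1r1, the interleukin-1 receptor, by -0.33 ± 0.11. The others included genes known mainly from other organs, such as Kap of the kidney, Bsn of the presynapse, Muc5ac of airway and stomach mucus and the renal salt transporter Slc12a3, with differences of -0.41 to -0.30. For none of these can it be said from ratios that the transcript was detected.

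**Figure D1:**
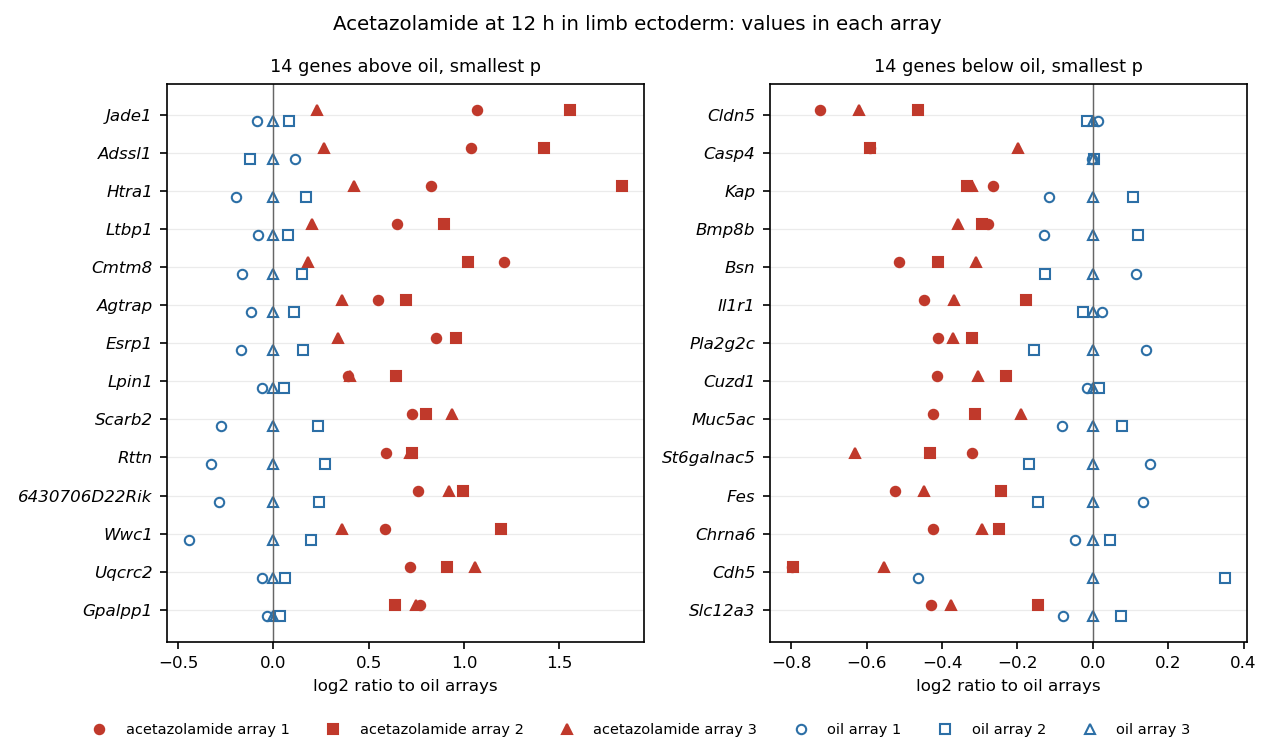
Each row is a gene and the x axis its log2 ratio to the oil arrays, with the acetazolamide arrays (filled, drawn above) and the oil arrays (open, drawn below) and 1 symbol per array number. The left panel holds the 14 genes above oil and the right panel the 14 genes below it with the smallest p among genes whose groups do not overlap; the acetazolamide values of Jade1 run from 0.23 to 1.56, while those of Uqcrc2 run from 0.72 to 1.06.

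Carbonic anhydrases, the targets of the drug, were measured for 9 of 16 listed members, and none passed the adjusted test. The median of the 9 differences was -0.14, beside -0.00 over all genes, and 4 were above 0. Car1, the cytosolic enzyme abundant in red cells, was the member at an unadjusted p under 0.05. It had -0.49, -0.40 and -0.21 after acetazolamide, against 0.35, -0.46 and 0 after oil, so that the groups overlapped. Its difference was -0.33 ± 0.15 (adjusted p 0.628 in limma). The share of all genes below oil at that p was 2.19%. Car2, the widespread cytosolic isozyme, differed by -0.32 ± 0.22 and Car3, the isozyme of muscle and fat, by -0.38 ± 0.24. The mitochondrial Car5a differed by -0.29 ± 0.16 and the secreted Car6 by -0.14 ± 0.17. The membrane-bound Car12 and Car14 differed by 0.11 ± 0.14 and 0.31 ± 0.20, and the acatalytic Car8 by 0.11 ± 0.17. The membrane-anchored Car4 differed by 0.09 ± 0.12, from probe sets that disagreed, at -0.26 and 0.44. Without oil array 2 the members below oil at an unadjusted p under 0.05 numbered 2, beside 10.7% of all genes. Without oil array 1, or without acetazolamide array 1 or 2, there were 0. Among 24 measured transporters of protons, bicarbonate and lactate, 16 were above 0 with a median of 0.08. Of the 24, 1 was above oil at an unadjusted p under 0.05 (4.17%, beside 5.67% of all genes). That gene was Slc16a7, a monocarboxylate transporter, with 0.92, 0.54 and 0.36 after acetazolamide, against -0.15, 0.13 and 0 after oil (0.61 ± 0.23, adjusted p 0.605). The count of 1 was 6 without oil array 2, 2 without acetazolamide array 2 or array 3 of either group, and 0 without acetazolamide array 1.

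Of the genes for ridge and ectoderm signals, 38 were measured. Of these, 26 were above 0, and 5 were above oil at an unadjusted p under 0.05, or 13.2%, beside 5.67% of all genes. The median was 0.08. Fgf4, an FGF ligand of the ridge, had 1.12, 0.95 and 0.32 after acetazolamide, against -0.60, 0.42 and 0 after oil, a difference of 0.85 ± 0.26 (adjusted p 0.478). Fgf8, the ridge ligand on which limb outgrowth most depends, had 0.78, 1.33 and -0.0048 after acetazolamide, against -0.16, 0.15 and 0 after oil (0.71 ± 0.31, adjusted p 0.622). In acetazolamide array 3 neither ligand stood apart from oil, whereas in arrays 1 and 2 both did. Bmp4, a ligand of ridge and mesoderm, differed by 0.46 ± 0.22 and Notch1, a receptor present in the ridge, by 0.40 ± 0.17.

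Trp63, the transcription factor required for stratified epithelium and for the ridge, ran the other way between arrays. Its ratios were 0.58, 0.22 and 2.00 after acetazolamide, against 0.06, -0.06 and 0 after oil (0.94 ± 0.36, adjusted p 0.605). Array 3, where Fgf4 and Fgf8 were lowest, held its highest value. Without array 3 its difference was 0.40. The count of 5 ridge genes became 8 without oil array 2, 2 without acetazolamide array 1 and 3 without acetazolamide array 2. The oil arrays themselves differed in these genes, with a median of 0.21 for oil array 2 minus oil array 1, beside 0.12 over all genes.

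Surface ectoderm and epithelial junction genes were measured for 46 members, of which 26 were above 0. At an unadjusted p under 0.05, 5 were above oil (10.9%, beside 5.67% of all genes) and 1 was below it (2.17%, beside 2.19%). Esrp1, the splicing regulator that keeps epithelial isoforms, had 0.85, 0.96 and 0.34 after acetazolamide, against -0.17, 0.15 and 0 after oil (0.72 ± 0.18, adjusted p 0.470). Ppl, the desmosomal plakin periplakin, had 0.61, 0.85 and 0.36 after acetazolamide, against 0.10, -0.11 and 0 after oil (0.61 ± 0.18). Dsg2, a desmosomal cadherin, had 0.54, 0.64 and 0.34 after acetazolamide, against -0.20, 0.17 and 0 after oil (0.52 ± 0.16). In each of the 3 genes every treated array was above every oil array. The member below oil was Pkp1, a plaque protein of desmosomes, named here after its values were seen. It had -0.39, -0.16 and -0.29 after acetazolamide, against -0.06, 0.02 and 0 after oil (-0.26 ± 0.12, adjusted p 0.628). The count of 1 below oil was 3 without oil array 2, beside 10.7% of all genes. It was 2 when oil array 1, or acetazolamide array 2, was left out. It was 0 without acetazolamide array 1 or array 3 of either group. The simple-epithelium keratins Krt8 and Krt18 differed by 0.10 ± 0.30 and 0.22 ± 0.18, with the probe sets of Krt18 at -0.06 and 0.50. The basal-layer keratins, also named after their values were seen, were below 0. Krt5 was at -0.22 ± 0.15, Krt14 at -0.08 ± 0.13, Krt15 at -0.15 ± 0.11 and Krt17 at -0.13 ± 0.13. The probe sets of Krt17 disagreed, from -0.44 to 0.21. None of these keratins reached an unadjusted p of 0.05. The epithelial adhesion molecules went opposite ways, with Cdh1 at -0.28 ± 0.16 and Epcam at 0.52 ± 0.25, and neither reached an unadjusted p of 0.05 (0.0801 and 0.0501).

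Basement membrane and fibrillar matrix genes had the most members of any list above oil at an unadjusted p under 0.05, 8 of 43 (18.6%, beside 5.67% of all genes). None was below oil at that p, and none passed the adjusted test. The list's median was 0.09 and 28 members were above 0. Fn1, fibronectin, had 0.39, 0.65 and 0.22 after acetazolamide, against -0.13, 0.12 and 0 after oil (0.42 ± 0.13, adjusted p 0.478). Lamb1, a laminin chain of early basement membranes, had 0.50, 0.73 and 0.77 after acetazolamide, against -0.20, 0.18 and 0 after oil (0.67 ± 0.23, adjusted p 0.559). Nid2, a nidogen that links laminin to collagen IV, had 0.96, 1.27 and 0.22 after acetazolamide, against -0.29, 0.24 and 0 after oil (0.83 ± 0.29). Npnt, an integrin ligand of epithelial basement membranes, differed by 0.60 ± 0.20. Fn1 and Lamb1 were clear of oil in every array, whereas Nid2 and Npnt overlapped it in 1 treated array. The count of 8 lay between 6 and 12 when single arrays were left out. Limb mesoderm genes, which would carry signal from adhering mesoderm, had a median of -0.03 over 51 members, with 22 above 0. At an unadjusted p under 0.05, 1 of them was above oil (1.96%, beside 5.67% of all genes) and 1 below it (1.96%, beside 2.19%). The member above was Col5a2, a fibrillar collagen chain held by the matrix list too. It had 0.72, 0.93 and 0.48 after acetazolamide, against -1.03, 0.59 and 0 after oil (0.85 ± 0.30). The member below was Alx4, whose groups overlapped (-0.58 ± 0.24). The count above oil was 0 without oil array 1, and 2 without oil array 2 or array 3 of either group. The count below oil lay between 0 and 8 when single arrays were left out.

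**Figure D2:**
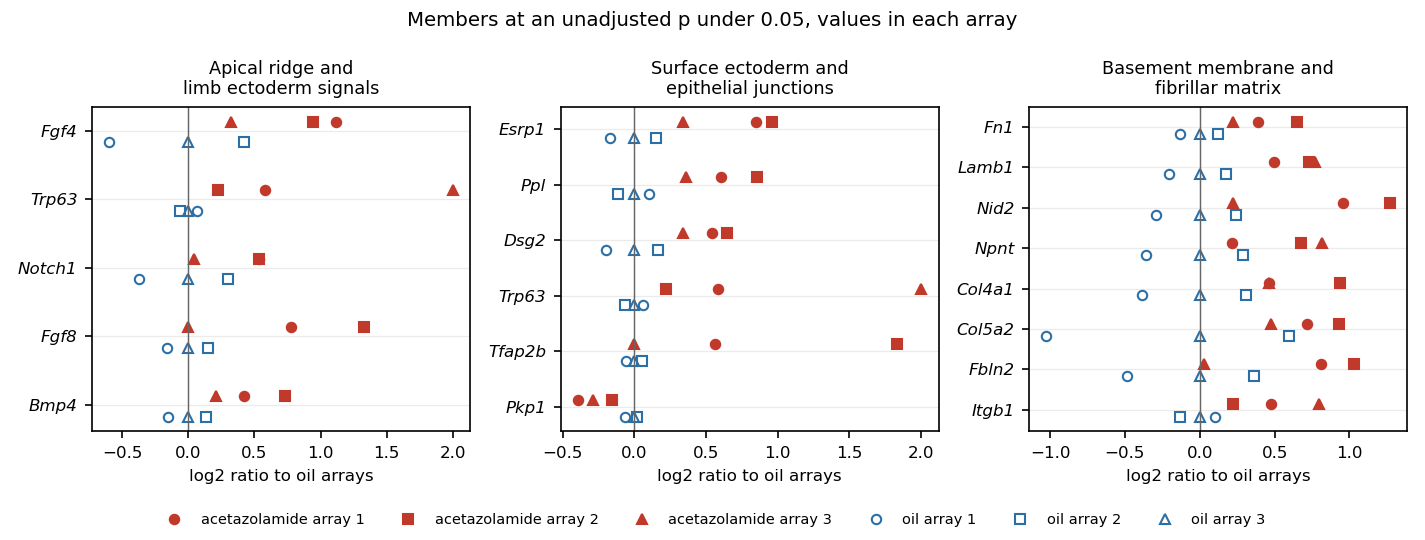
Log2 ratios to the oil arrays (x axis) in each acetazolamide array (filled, drawn above) and oil array (open, drawn below) for the members at an unadjusted p under 0.05 of 3 lists; members beyond the 4 smallest p of a list were picked by their values. Acetazolamide array 3 has the lowest of the treated values for Fgf4, at 0.32, and the highest for Trp63, at 2.00.

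Endothelial genes were measured for 25 members, of which 7 were above 0, with a median of -0.13. At an unadjusted p under 0.05, 3 were below oil, which is 12.0% beside 2.19% of all genes, and 0 above it. They were Cldn5, Cdh5 and Sox18, an endothelial transcription factor with a difference of -0.59 ± 0.28. Sox18 had -0.93, -0.62 and -0.43 after acetazolamide, against 0.44, -0.64 and 0 after oil, so that its groups overlapped. The receptor Flt4 of lymphatic endothelium differed by -0.22 ± 0.12. Pecam1, Tek and Eng, named here after their values were seen, were above 0, at 0.03 ± 0.24, 0.07 ± 0.24 and 0.23 ± 0.26. Kdr, picked in the same way, was at -0.13 ± 0.23. The count of 3 lay between 2 and 5 when single arrays were left out, with 5 without oil array 2, beside 10.7% of all genes. In pooled tissue, a change in the number of endothelial cells and one in RNA per cell cannot be told apart, and neither was tested. Lists of other cell types also had medians below 0: -0.12 for 25 macrophage and leukocyte genes, of which 2 were above 0, -0.09 for 21 red cell genes and -0.09 for 23 neural crest, nerve and pigment cell genes. At an unadjusted p under 0.05, 1 leukocyte gene (4%), 1 red cell gene (4.76%) and 0 neural crest genes were below oil, beside 2.19% of all genes. Without oil array 2 those counts were 5, 3 and 3, beside 10.7% of all genes. Without oil array 1 they were 2, 0 and 3, without acetazolamide array 1 all were 0, and without acetazolamide array 2 they were 0, 1 and 1. The medians of acetazolamide arrays 1, 2 and 3 over all genes were 0.02, 0.03 and -0.11, against -0.06, 0.06 and 0 for oil.

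Target genes of p53, the transcription factor of the DNA damage response, had the highest median of the 34 lists, 0.32 over 20 members, with 14 above 0. The medians of acetazolamide arrays 1, 2 and 3 over these genes were 0.31, 0.13 and 0.26, against -0.13, 0.12 and 0 for oil. Zmat3, a p53-induced RNA-binding protein, had 0.90, 0.58 and 0.60 after acetazolamide, against 0.18, -0.20 and 0 after oil (0.70 ± 0.20, adjusted p 0.478). Mdm2, the ubiquitin ligase that p53 induces and that degrades it, had 0.52, 0.28 and 0.93 after acetazolamide, against -0.20, 0.17 and 0 after oil (0.58 ± 0.20, adjusted p 0.559). Both were clear of oil in every treated array. Xpc, a damage sensor of nucleotide excision repair, differed by 0.50 ± 0.19. It was the last of the 3 members above oil at an unadjusted p under 0.05 (15.0%, beside 5.67% of all genes). Apaf1, the core of the apoptosome, differed by 0.71 ± 0.36 (adjusted p 0.644). The count of 3 lay between 2 and 6 when single arrays were left out, with 6 without oil array 2.

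Among 28 measured members of the Bcl2 family and caspases, 15 were above 0, with a median of 0.06. At an unadjusted p under 0.05, 2 were above oil (7.14%, beside 5.67% of all genes) and 1 below it (3.57%, beside 2.19%). The groups did not overlap for 2 members above oil (beside 8.48% of all genes) and 5 below it (beside 8.31%). The member below oil was Casp4, given above. Bcl2l2, which protects from cell death, had 0.82, 0.61 and 0.30 after acetazolamide, against -0.10, 0.09 and 0 after oil (0.58 ± 0.20, adjusted p 0.559). Casp1, an inflammatory caspase like Casp4, differed by 0.20 ± 0.10. Without oil array 2 the counts were 4 above oil and 2 below it, and the count above was 1 without oil array 1 and 0 without acetazolamide array 1.

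Hypoxia and glycolysis genes were measured for 39 members, of which 28 were above 0, with a median of 0.11. Of the 39, 4 were above oil at an unadjusted p under 0.05 (10.3%, beside 5.67% of all genes). Pdk1, a kinase that inhibits pyruvate dehydrogenase, had 0.55, 0.61 and 1.19 after acetazolamide, against -0.43, 0.33 and 0 after oil (0.81 ± 0.32, adjusted p 0.618). Its relative Pdk3 had 0.43, 0.57 and 0.46 after acetazolamide, against -0.33, 0.27 and 0 after oil (0.51 ± 0.21, adjusted p 0.622). Both kinases were above all oil arrays in all treated arrays, with the oil arrays far apart themselves. The histone demethylase Kdm3a differed by 0.66 ± 0.28 and the Myc antagonist Mxi1 by 0.64 ± 0.28. The count of 4 lay between 1 and 6 when single arrays were left out. It was 1 when oil array 1, or acetazolamide array 2, was left out and 2 when array 3 of either group was.

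ACGTG or its reverse complement CACGT, 1 form of the core motif of the hypoxia-inducible factors, was looked for in the 250 bases before the start of these 4 genes. Where a gene had more than 1 promoter entry, only the one farthest upstream was searched. Pdk1 had 2 entries, and Kdm3a and Mxi1 had 3 each. The form with G in the first place, GCGTG, was not counted, so a window without ACGTG may still hold a core motif. The ACGTG form was found in 1 of the 4, Pdk3, 53 bases before the start, beside 16.5% of 27025 genes. The stretch is shown, from RefSeq (GRCm38.p6, chrX:93832151-93832400, minus strand), as an example of where the motif lies, with the motif in capitals.
Pdk3: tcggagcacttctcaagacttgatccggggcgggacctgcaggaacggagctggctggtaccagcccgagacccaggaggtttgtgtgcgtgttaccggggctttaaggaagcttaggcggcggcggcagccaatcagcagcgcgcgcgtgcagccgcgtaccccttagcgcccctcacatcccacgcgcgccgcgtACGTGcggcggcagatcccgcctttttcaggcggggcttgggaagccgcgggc

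Most genes of cell division had differences above 0, and they also differed between the oil arrays. Of 40 mitosis genes 30 were above 0, with a median of 0.21, and 4 of the 40 (10%, beside 5.67% of all genes) were above oil at an unadjusted p under 0.05. Kif23, a kinesin of the midbody, had 0.58, 0.92 and 0.83 after acetazolamide, against -0.68, 0.46 and 0 after oil (0.85 ± 0.26, adjusted p 0.478). Kif20a, another kinesin of cytokinesis, had 0.42, 0.45 and 0.81 after acetazolamide, against -0.52, 0.38 and 0 after oil (0.61 ± 0.21). For both, oil array 2 sat near the treated arrays and oil array 1 far below them. Prc1, which bundles spindle midzone microtubules, differed by 0.59 ± 0.21, and Cdk1, the kinase of mitotic entry, by 0.33 ± 0.16. The median over the list was 0.44 for oil array 2 minus oil array 1. The count of 4 was 16 without oil array 2 and 2 without array 3 of either group. Of 49 DNA replication genes 36 were above 0, with a median of 0.08, and oil array 2 minus oil array 1 had a median of 0.46. Of 66 splicing factors 49 were above 0, with a median of 0.14, beside 0.38 between the oil arrays. Sf3b1, a branch point factor, had the highest difference of that list, 1.11 ± 0.42, from probe sets that disagreed at 0.47 and 1.75.

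Of 32 heat shock and chaperone genes 4 were above oil at an unadjusted p under 0.05 (12.5%, beside 5.67% of all genes) and 1 below it (3.12%, beside 2.19%). The cytosolic small chaperone Hspb1 was the one below (-0.48 ± 0.16), while the mitochondrial Hspa9 (0.56 ± 0.22) and the chaperonin subunits Cct4 (0.57 ± 0.24) and Cct5 (0.33 ± 0.14) were above. Of 43 genes of unfolded protein and amino acid stress 3 were above oil, namely Dnajc3 (0.56 ± 0.23), Manf (0.52 ± 0.22) and the kinase Eif2ak3 (0.53 ± 0.23), which is 6.98% beside 5.67% of all genes, with a list median of 0.07. The chaperone count above oil was 2 without acetazolamide array 2 or array 3 of either group, and the count below oil was 2 without oil array 1 or array 3 of either group. The unfolded protein count was 8 without oil array 2 and 0 without acetazolamide array 1. Of 36 oxidative stress genes 1, the glutathione transferase Gsta4, was above oil at that p (0.73 ± 0.26), which is 2.78% beside 5.67% of all genes. Below oil there were 0, beside 2.19% of all genes. Without oil array 2 the oxidative stress counts were 4 above and 4 below oil, and without array 3 of either group 3 were above. The medians of the proteasome, respiratory chain and cytosolic ribosomal protein lists were 0.03, -0.01 and 0.03.

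**Figure D3:**
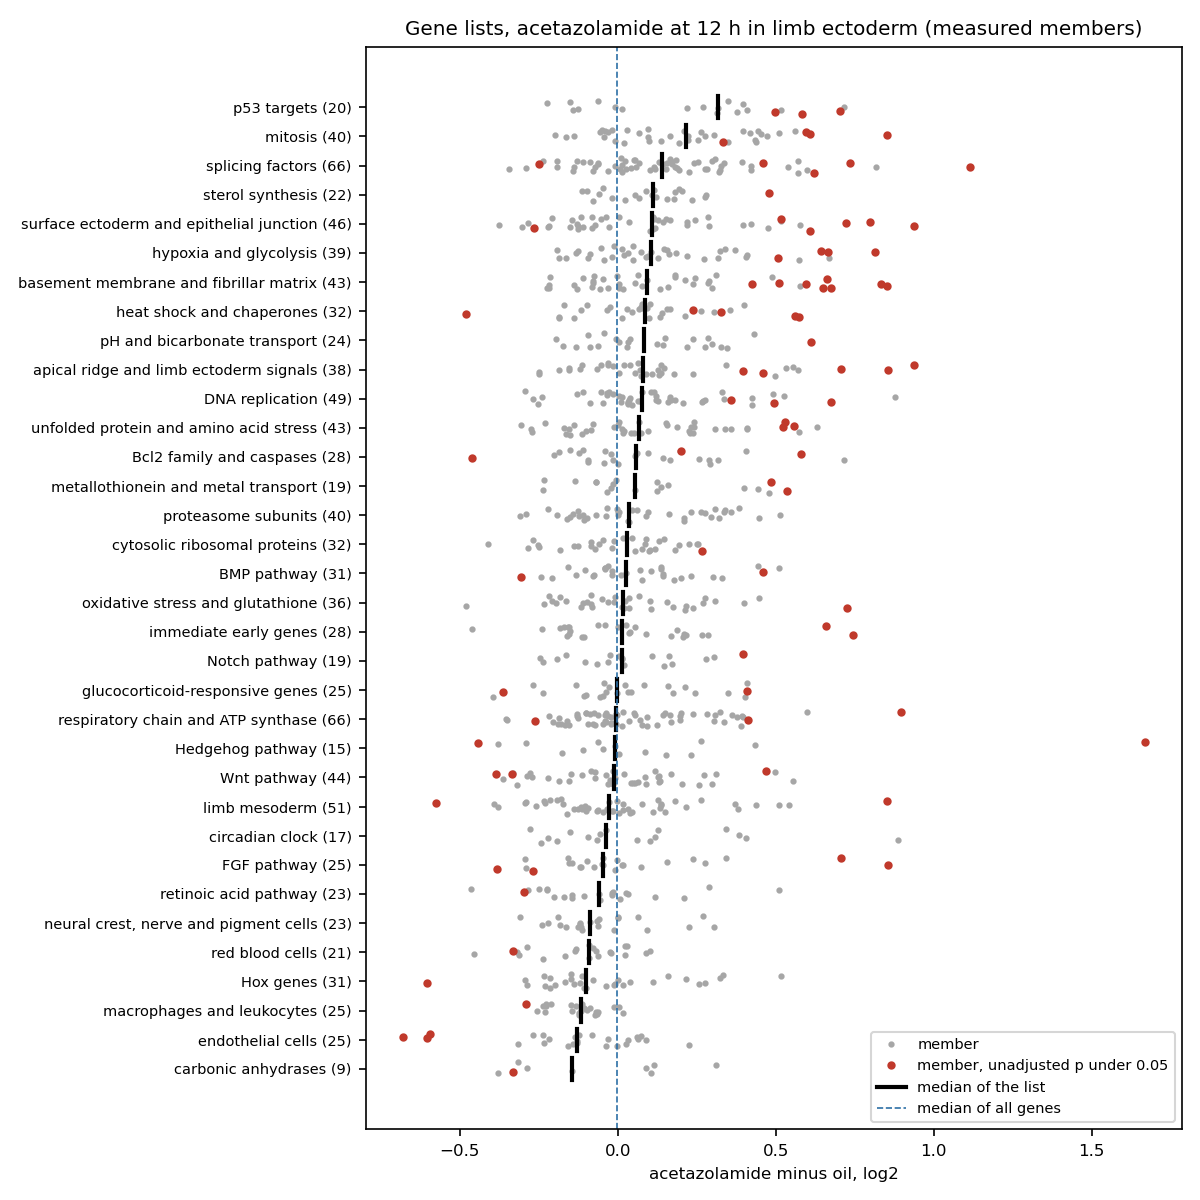
Each point is a measured member of 1 of 34 gene lists (number of members in brackets), placed on the x axis by its difference, acetazolamide minus oil, on the log2 scale; red points have an unadjusted p under 0.05, black bars are list medians and the dashed line is the median of all genes. List medians run from -0.14 for carbonic anhydrases to 0.32 for p53 targets, and no point passed the adjusted test.

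The spread between the oil arrays ran along the same genes as the difference after acetazolamide. Oil array 2 minus oil array 1 had the same sign as the difference in 567 of the 649 genes at an unadjusted p under 0.05 (87.4%), beside 70.2% of all genes. Over all 8252 genes its Pearson correlation was 0.58 with the difference, which uses the same 2 oil arrays, and 0.34 with acetazolamide array 3 over oil array 3, which uses neither. Genes share their arrays and are no replicates, so these values describe the 6 arrays only. Acetazolamide arrays 1 and 2 correlated at 0.52 over genes, arrays 1 and 3 at 0.43, and arrays 2 and 3 at 0.00. Arrays 1 and 2 were taken to share a denominator, which raises their correlation, and array 3 has another. The 3 values therefore cannot be compared as agreement between replicates. The 3′ over 5′ control probe sets of the array, which follow RNA quality, also moved with the groups. The Gapdh 3′ minus 5′ difference was 0.32, 0.60 and 0.29 in the acetazolamide arrays, against -0.27, 0.26 and 0 in the oil arrays, and that of actin was 0.17, 0.25 and 0.33, against 0.10, -0.05 and 0. The part of this shift in the gene differences was not tested.

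**Figure D4:**
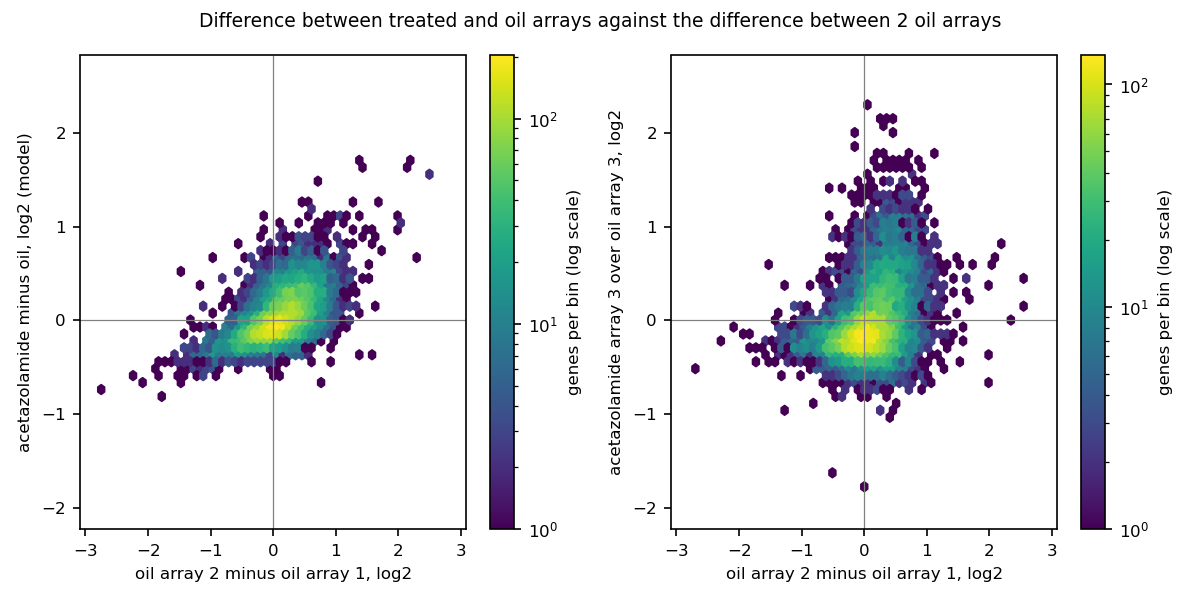
Bins of genes (colour: genes per bin, log scale) by oil array 2 minus oil array 1 on the x axis and, on the y axis, acetazolamide minus oil (left) or acetazolamide array 3 over oil array 3 (right), all on the log2 scale. Both clouds slope upward, with Pearson correlations of 0.58 on the left and 0.34 on the right.

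The effect at 12 h was set against that at 3 h in the same tissue. No gene passed the adjusted test of the difference between the times (0%, smallest adjusted p 0.750 in limma), and 262 genes had an unadjusted p under 0.05 (3.17%), 211 with a higher effect at 12 h (2.56%) and 51 with a lower one (0.618%). Without oil array 2 of the 12 h group the 262 genes became 940, without array 3 of either 3 h group 861, and without acetazolamide array 1 of the 12 h group 147. For Htra1 the effect was 1.03 ± 0.23 at 12 h and -0.28 ± 0.18 at 3 h, a difference of 1.32 ± 0.29. For Jade1 it was 0.95 ± 0.18 at 12 h and -0.02 ± 0.14 at 3 h, a difference of 0.98 ± 0.23. Cxadr, a junctional virus receptor, had the smallest p among genes with a lower effect at 12 h: -0.07 ± 0.15 at 12 h and 0.72 ± 0.12 at 3 h, a difference of -0.80 ± 0.19. The ridge ligands were on opposite sides of oil at the 2 times, with Fgf4 at 0.85 ± 0.26 at 12 h and -0.30 ± 0.21 at 3 h, and Fgf8 at 0.71 ± 0.31 at 12 h and -0.25 ± 0.25 at 3 h. Trp63 was above oil at both, 0.94 ± 0.36 at 12 h and 0.81 ± 0.29 at 3 h. The adjusted p of each of these differences was 0.750 or more. Leaving out array 3 of the 12 h groups brought 1 gene, Jade1, past the threshold.

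In mesoderm at 12 h Jade1 and Htra1 lay near the oil arrays. Jade1 was at 0.95 ± 0.18 in ectoderm and 0.05 ± 0.15 in mesoderm, a difference of 0.90 ± 0.23, and Htra1 at 1.03 ± 0.23 in ectoderm and -0.03 ± 0.19 in mesoderm, a difference of 1.06 ± 0.30. Arg1, an enzyme that splits arginine, was at 0.99 ± 0.32 in ectoderm and -0.48 ± 0.27 in mesoderm, a difference of 1.48 ± 0.42. Adssl1, in contrast, was above oil in both tissues, at 0.91 ± 0.20 in ectoderm and 0.70 ± 0.17 in mesoderm. No gene passed the adjusted test of the tissue difference (0%, smallest adjusted p 0.967), and 230 had an unadjusted p under 0.05 (2.79%), 94 with a higher effect in ectoderm (1.14%) and 136 with a lower one (1.65%). The 230 genes became 1076 without oil array 2 of ectoderm and 1025 without acetazolamide array 1 of mesoderm, and they lay between 80 and 129 without acetazolamide array 1 of ectoderm, oil array 2 of mesoderm or array 3 of either mesoderm group. Without array 3 of the ectoderm groups Jade1 passed. Over all genes the Pearson correlation of the ectoderm effect at 12 h was 0.41 with the ectoderm effect at 3 h. It was 0.18 with the mesoderm effect at 12 h and 0.38 with the mesoderm effect at 3 h. These are descriptions without a test.

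Cadmium sulfate in 12 h ectoderm gave effects that ran against those of acetazolamide, with a Pearson correlation of -0.46 over all genes. The cadmium effect also correlated at -0.40 with oil array 2 minus oil array 1, with which it shares no array. The agents came in different vehicles, so agent and vehicle cannot be told apart in this contrast. No gene passed the adjusted test of the difference between agents (0%, smallest adjusted p 0.0533 in limma), and 963 had an unadjusted p under 0.05 (11.7%), of which 709 were higher with acetazolamide (8.59%) and 254 lower (3.08%). The 963 genes became 2271 without saline array 1, 1921 without oil array 2, 604 without acetazolamide array 1 and 362 without array 3 of the cadmium or saline group. Uqcrc2 was at 0.90 ± 0.24 with acetazolamide and -1.08 ± 0.28 with cadmium, a difference of 1.98 ± 0.37. Tbc1d14, a regulator of autophagy, was at 0.38 ± 0.13 with acetazolamide and -0.67 ± 0.15 with cadmium, a difference of 1.05 ± 0.20. Mcam, an adhesion molecule of endothelium and melanoma, was at 0.06 ± 0.13 with acetazolamide and 1.10 ± 0.16 with cadmium, a difference of -1.04 ± 0.21. Trp63 stood at 0.94 ± 0.36 with acetazolamide and -1.004 ± 0.42 with cadmium. The mitosis list had a median of 0.21 with acetazolamide and -0.37 with cadmium. The count past the adjusted threshold was 255 without saline array 1, 161 without oil array 2, 5 without cadmium array 2, 2 without oil array 1 and 1 without array 3 of the acetazolamide or oil group.

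**Figure D5:**
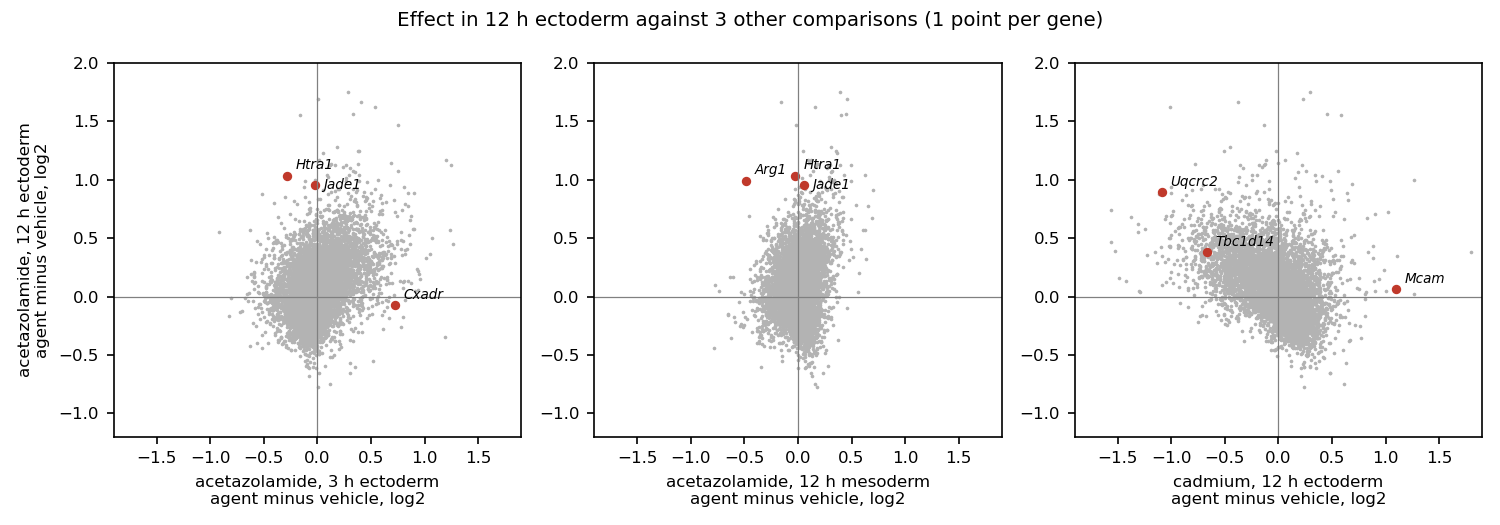
Each point is a gene, with its effect of acetazolamide in 12 h ectoderm on the y axis and, on the x axis, its effect of acetazolamide in 3 h ectoderm, of acetazolamide in 12 h mesoderm or of cadmium in 12 h ectoderm, each agent minus vehicle on the log2 scale. Red points are the 3 genes with the smallest p of each difference; the cloud slopes upward against 3 h ectoderm (Pearson correlation 0.41) and downward against cadmium (-0.46).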

How the data were processed

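RNA was hybridised to Affymetrix arrays of 12488 probe sets. Per the labels, 28S/18S ratios were checked before hybridisation. The values the authors deposited are ratios, and how signals were made, scaled or filtered is not given in the sources used here. That each is a ratio to vehicle arrays of its tissue and time follows from the vehicle values (oil arrays 1 and 2 sum to 2 within 3e-07). Treated arrays 1 and 2 were taken to share their denominator with oil arrays 1 and 2, and array 3 with oil array 3, from the numbering alone. No column of per-sample values was left unused (0).

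Gene symbols came from the platform annotation: 10855 probe sets name 1 gene, 396 several and 1237 none, and 0 symbols changed through Entrez identifiers. Log2 ratios were averaged over the probe sets of a gene (2076 genes have more than 1). One limma model (limma 3.58.1, R 4.3.3) was fitted to all 48 arrays, with 16 denominator means and 8 agent effects (24 residual degrees of freedom) and 1 precision weight for each agent, tissue and time, followed by eBayes without trend. The same fit over the 1633 probe sets without a single gene called 0, with 122 at an unadjusted p under 0.05. The fit was tested on simulated data. No depth can be read from ratios, so precision rests on how many arrays there are.

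Genes named are the 14 above and the 14 below oil with the smallest p among genes whose groups do not overlap, all carbonic anhydrases, up to 4 members of each list by p, 7 epithelial genes and the 3 genes with the smallest p of each difference. Members and lists were chosen with earlier results of these data known. No list was tested as a set. Alternatives left out weights, denominators, single arrays or arrays 3, added a replicate block, centred arrays, took each probe set on its own, used robust variances or fitted only the arrays compared.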

Additional observations from a re-analysis of the deposited data

How the results depend on the processing

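For acetazolamide against oil in 12 h ectoderm, 0 genes passed with the denominators left out, arrays centred on their medians, each probe set on its own, robust variances or only the arrays compared; the count was 1 without weights (1174 genes at an unadjusted p under 0.05, beside 649) and 6 from arrays 1 and 2 of both groups. Leaving out 1 array gave 0 to 338, and with the weights of all arrays held, an alternative chosen after seeing the data, 0 to 5. Of the differences, 12 h minus 3 h and ectoderm minus mesoderm each gave 1 gene from arrays 1 and 2 and 0 to 1 with 1 array left out. Acetazolamide minus cadmium gave 297 without weights, 1 with the denominators left out, 1 from arrays 1 and 2, and 0 to 255 with 1 array left out. The cause was not tested. With the replicate number as a block, 0 genes passed in each of the 4 comparisons, and 715 were at an unadjusted p under 0.05 for acetazolamide against oil. The numbers were not shown to pair the arrays: the deviations of arrays 1 and 2 correlated at -0.18 between the groups. Among 163 named genes 3 reversed: with 1 array left out Neurod1 lay between -0.25 and 0.013 (0.013 from arrays 1 and 2), Krt8 between -0.11 and 0.25 and Rhag between -0.72 and 0.0059. Of the list medians, 23 of the recomputed values moved by more than the spread between the treated arrays.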
